A study of Mus musculus with 24 samples.

Results

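Imprinted genes that act on growth were followed in differentiating mouse myoblasts. The set holds 9 genes, Dlk1, Meg3, Rian, Mirg, Peg3, Plagl1, Grb10, Mest and Ndn, chosen by name, and each had 1 row in a table of 28109 genes. RNA-seq had been performed on C2C12 cells, an established mouse myoblast line whose strain is labelled C3H, and on primary myoblasts (PMs) isolated from 3 to 4 week-old wild-type mice of the C57/B6 strain. Each received either a control siRNA against luciferase (siControl) or combined siRNAs targeting Tead1 plus Tead4 (siTead1/4), which encode DNA-binding factors of the Hippo pathway. RNA was taken 24 h after transfection, before differentiation (day 0), and after 3 and 6 days in a medium with 2% horse serum. With 2 biological replicates for each of 12 groups there were 24 libraries with a total of 25453830 to 52784510 counts on genes. C2C12 cells are 1 clonal line, and the PM cultures may hold other cells of the muscle. The number of mice behind a PM replicate and whether replicates were separate cultures are not given in the labels, so the p-values measure the spread between libraries.

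In an imprinted gene the copy inherited from one parent is expressed and the other is silent, and most such genes sit in clusters that share an imprinting control region. Many act on the growth of the embryo and its tissues, with paternally expressed genes often promoting growth and maternally expressed genes often restraining it. Many are high in embryonic tissues and decline after birth. The counts do not separate the parental copies, so each level below is the sum over both alleles.

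In the Dlk1-Dio3 cluster of chromosome 12, Dlk1 is expressed from the paternal copy and encodes a transmembrane protein related to Notch ligands. Meg3, Rian and Mirg are non-coding RNAs expressed from the maternal copy. Rian hosts small nucleolar RNAs and Mirg hosts microRNAs. Peg3 (paternal) encodes a zinc finger protein and Plagl1 (paternal) a zinc finger transcription factor that restrains the cell cycle. Grb10, which is maternally expressed in most tissues outside the brain, encodes an adaptor that inhibits the insulin and IGF1 receptors. Mest (paternal) encodes a protein of the hydrolase fold family, and Ndn (paternal) the MAGE family protein Necdin.

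On mm9, the build of the deposited table, Dlk1 (ENSMUSG00000040856) lies at chr12:110691033-110701546, Meg3 (ENSMUSG00000021268) at chr12:110779211-110809936, Rian (ENSMUSG00000091793) at chr12:110842155-110899919 and Mirg (ENSMUSG00000091158) at chr12:110973191-110987665, all on the plus strand. The gaps between them are 77.7 kb from Dlk1 to Meg3, 32.2 kb from Meg3 to Rian and 73.3 kb from Rian to Mirg. Peg3 (ENSMUSG00000002265) lies at chr7:6656603-6683132 and Grb10 (ENSMUSG00000020176) at chr11:11830511-11938686, both on the minus strand. Plagl1 (ENSMUSG00000019817) lies at chr10:12810497-12851500, Mest (ENSMUSG00000051855) at chr6:30673547-30698457 and Ndn (ENSMUSG00000033585) at chr7:69493163-69494814, all on the plus strand. Mest overlaps its neighbour Copg2 over 904 bases, and without strand their reads cannot be told apart there. Rian contains 14 annotated small RNA genes and Mirg contains 7. These small RNA genes drew 83 and 37 counts in the 24 libraries together, against 31666 for Rian and 1013 for Mirg. The values below are those counted for the long host genes, and how reads over nested genes were assigned is not given.

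RefSeq gave 13 annotated start sites for the 9 genes. The 250 bases before a start are shown for Meg3, Rian and Mirg, the 3 members that fell with siTead1/4 in PMs, and for Peg3, in which both motifs marked below occur. Each is written 5′ to 3′ on the strand of its gene and was matched at a single place of mm9, at chr12:110778956-110779205 (plus) for the first Meg3 start, chr12:110841905-110842154 (plus) for Rian, chr12:110972941-110973190 (plus) for Mirg and chr7:6683131-6683380 (minus) for Peg3. Capitals mark GGAATG, the core of the MCAT element bound by TEAD factors, and TGACGTCA, the cAMP response element bound by CREB and ATF factors, on either strand.
Meg3: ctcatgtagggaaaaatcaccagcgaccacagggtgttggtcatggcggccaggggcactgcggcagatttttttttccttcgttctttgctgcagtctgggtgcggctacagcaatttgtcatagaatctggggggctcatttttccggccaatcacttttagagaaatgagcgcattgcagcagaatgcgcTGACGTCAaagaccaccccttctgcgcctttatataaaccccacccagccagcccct
Rian: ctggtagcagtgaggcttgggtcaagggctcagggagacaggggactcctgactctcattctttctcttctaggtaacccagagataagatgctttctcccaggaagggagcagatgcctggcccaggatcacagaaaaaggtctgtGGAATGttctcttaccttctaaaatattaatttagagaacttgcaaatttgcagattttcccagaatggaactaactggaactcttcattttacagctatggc
Mirg: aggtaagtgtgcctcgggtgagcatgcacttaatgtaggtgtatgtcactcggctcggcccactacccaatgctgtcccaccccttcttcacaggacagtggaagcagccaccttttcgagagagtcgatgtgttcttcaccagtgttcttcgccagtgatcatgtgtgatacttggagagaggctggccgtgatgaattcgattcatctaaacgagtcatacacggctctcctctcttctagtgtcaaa
Peg3: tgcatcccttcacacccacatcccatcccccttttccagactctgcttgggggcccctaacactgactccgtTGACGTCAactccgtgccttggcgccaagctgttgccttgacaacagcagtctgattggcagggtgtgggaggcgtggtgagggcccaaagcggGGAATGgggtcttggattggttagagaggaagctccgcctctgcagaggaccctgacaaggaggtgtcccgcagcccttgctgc
GGAATG or its reverse complement lay before 2 of the 13 starts, those of Rian and Peg3, and before 12.6% of the 32851 RefSeq mouse starts. TGACGTCA was found before 2 of 13, the first start of Meg3 and that of Peg3, and before 1.55% of all starts. It was chosen for display after the sequences had been read. The E-box letters CANNTG, recognised by myogenic factors such as MyoD, lay before 8 of the 13 starts and 66.2% of all starts. The marked motifs do not overlap each other. A match describes the letters alone, and these windows leave out distal enhancers.

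The labelled cell types were checked with marker genes. Myod1, Myf5 and Pax7, transcription factors of myoblasts, had counts in all 24 libraries, with medians of 164 CPM, 16.2 CPM and 27.9 CPM in C2C12 cells and of 443 CPM, 30.8 CPM and 45.3 CPM in PMs (CPM, counts scaled to library size by TMM). Ptprc, the CD45 gene of leukocytes, had 4 counts in the 12 C2C12 libraries together and 5 in the 12 PM libraries. The macrophage markers summed to 1.11 to 2.48 CPM in C2C12 cells and 2.35 to 6.29 CPM in PMs. Of these, Itgam had 224 counts over the C2C12 libraries and 1006 over the PM libraries. Pecam1 of endothelial cells ranged from 0.00 to 0.113 CPM in C2C12 cells and from 0.152 to 4.11 CPM in PMs, and Sox10 of Schwann cells from 0.00 to 0.0193 CPM and from 0.0506 to 4.01 CPM. The fibroblast markers did not all point one way. Pdgfra ranged from 5.44 to 27.6 CPM in C2C12 cells and from 1.70 to 9.54 CPM in PMs, whereas Thy1 had 4 counts over the 12 C2C12 libraries and 11.9 to 84.0 CPM in PMs, and Col1a1 had medians of 156 and 1074 CPM. The PM libraries thus held low levels of endothelial and Schwann cell transcripts that C2C12 libraries had at or near 0. Replicates correlated at r = 0.992 to 0.997 across genes in PMs (log2 CPM, genes are not independent replicates). The siTead1/4 pairs of C2C12 cells correlated at r = 0.983, 0.983 and 0.988 at days 0, 3 and 6, the lowest of all groups.

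The targets of the siRNAs were lower in siTead1/4 cells. In PMs at day 0, Tead4 was at 64.2 and 59.5 CPM with siControl and at 13.2 and 11.1 CPM with siTead1/4, which left 19.6% of the control mean. It was left at 16.8% at day 3 and 29.8% at day 6, and Tead1 at 37.1%, 31.3% and 46.7% at days 0, 3 and 6. In C2C12 cells Tead4 was left at 21.6%, 30.1% and 41.0%, and Tead1 at 18.2%, 47.9% and 69.5%. Tead1 in C2C12 cells at day 0 differed widely between the siTead1/4 replicates, at 28.9 and 4.50 CPM.

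The first comparison asked how far the 9 genes differ in level between PMs and C2C12 cells (plot of levels in each library). With siControl at day 0, the 5 members above 3 counts per library in both cell types, Peg3, Plagl1, Grb10, Mest and Ndn, were called higher in PMs, where a call requires, in the quasi-likelihood test of edgeR, more than 1 log2 unit of change in either direction and a Benjamini-Hochberg adjusted p under 0.05, and 16.3% of the 16926 genes tested were called in this direction. At day 3 these 5 were again called higher, against 17.2% of genes, and at day 6 there were 4 of 5 against 15.7%. The other 4, Dlk1, Meg3, Rian and Mirg, were at or near 0 in every C2C12 library and passed the filter through PMs alone, so a call for them could only be higher and adds nothing to these counts. The shares over all genes were not limited in this way. The exception at day 6 was Mest, at 57.2 and 113 CPM in PMs and 47.5 and 44.1 CPM in C2C12 cells, with groups that did not overlap. The cell types differ in strain, origin and culture history, and these cannot be told apart from the type of cell. In bulk libraries fewer expressing cells and less RNA per cell cannot be told apart either. At day 0, 8 of 9 myogenic markers were also higher in PMs (median log2 fold change 2.94), with sums of 9003 and 8635 CPM against 1262 and 1110 CPM, and Myh3, an embryonic myosin heavy chain of differentiating muscle, was at 4113 and 3793 CPM against 14.8 and 7.20 CPM. Of the 6 endothelial markers 4 were higher, of which Tek and Tie1 were at or under 3 counts in C2C12 cells, with sums of 11.1 and 3.18 CPM against 0.366 and 0.391 CPM. Schwann cell markers, led by Erbb3, had 2 of 6 higher, with sums of 139 and 132 CPM against 26.4 and 22.6 CPM. The fibroblast markers went the other way in sum, at 852 and 779 CPM against 1689 and 2482 CPM. Of 9 tested, 3 were lower and 1 was higher, Thy1, which was at or under 3 counts in C2C12 cells. The part of these markers in the levels of the members was not tested.

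**Figure D1:**
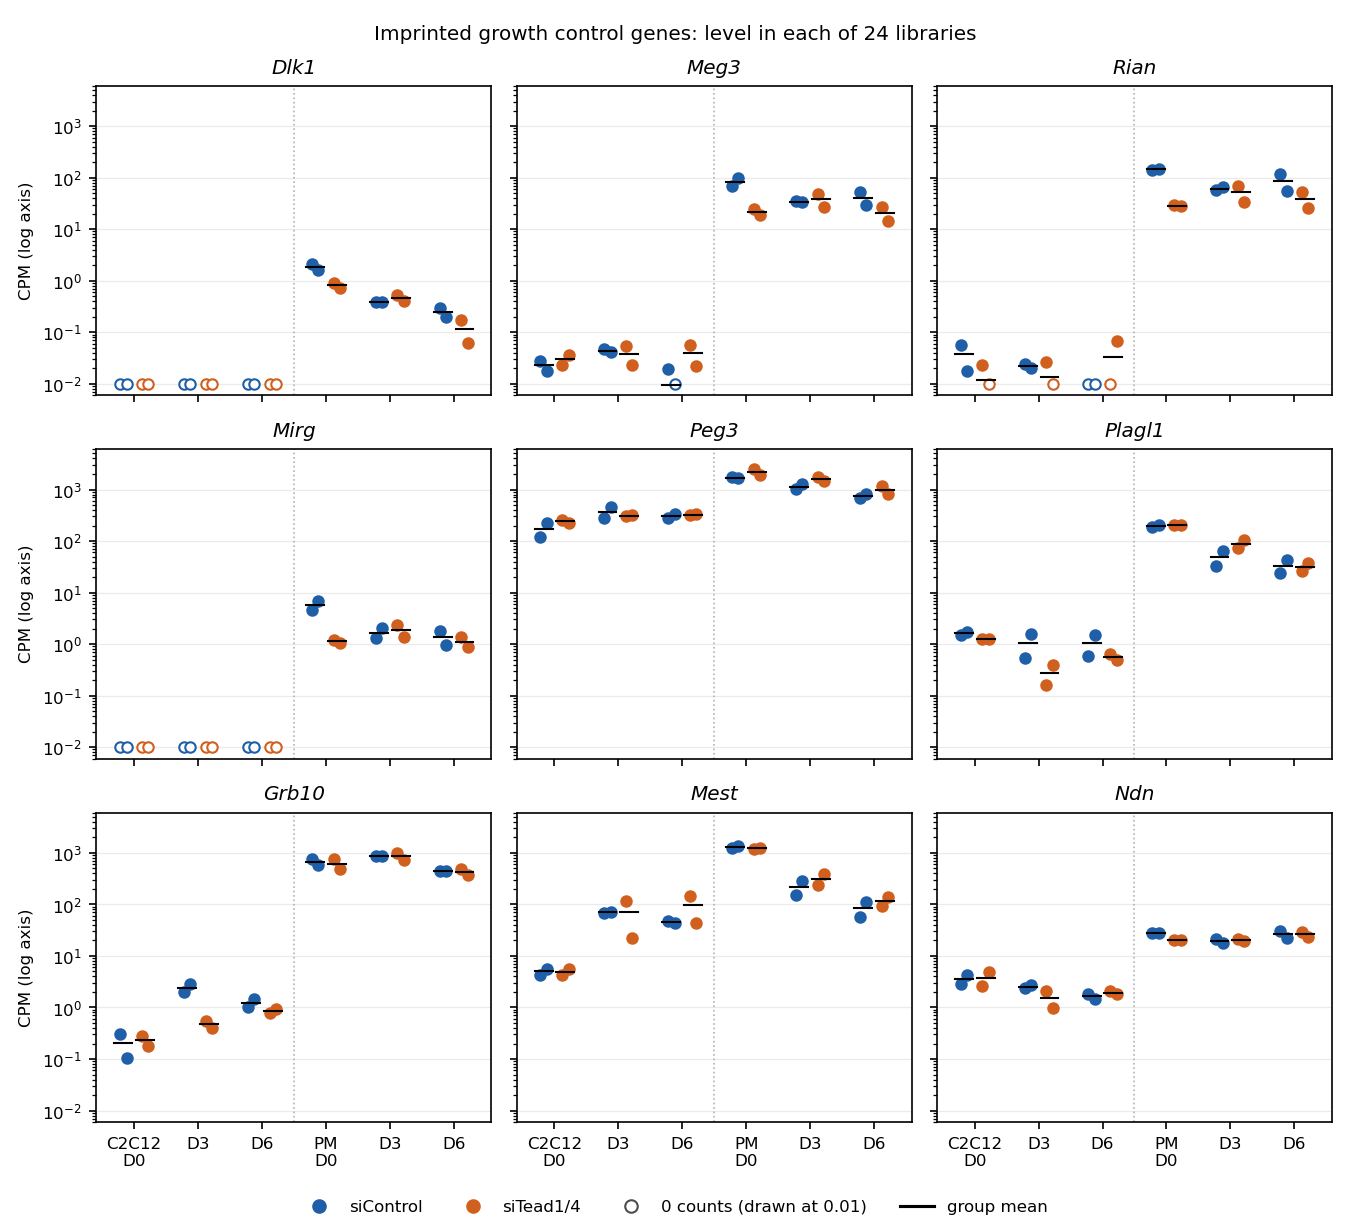
CPM (log axis) of the 9 genes in each of the 24 libraries, by cell type and day, for siControl (blue) and siTead1/4 (orange), with black lines at the group means and open circles at 0.01 for libraries without a count. Dlk1 and Mirg had no count in any C2C12 library, and all 9 genes were higher in PMs at day 0.

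The Dlk1-Dio3 genes were at or near 0 in C2C12 cells. Dlk1 and Mirg had 0 counts in all 12 libraries, Meg3 had 15 counts and Rian 10 counts over the 12 together, and 3 counts in a library correspond to 0.0533 to 0.110 CPM. With siControl at day 0 in PMs, Dlk1 was at 2.10 and 1.61 CPM, Meg3 at 68.8 and 97.3 CPM, Rian at 141 and 147 CPM, and Mirg at 4.51 and 6.90 CPM. Against the floor of 3 counts per library, Meg3 was at least 1206-fold, Rian at least 2091-fold, Mirg at least 82.9-fold and Dlk1 at least 26.9-fold higher in PMs.

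Grb10 differed most among the members whose counts were above the floor in both cell types. It was at 750 and 579 CPM in siControl PMs at day 0 and at 0.310 and 0.107 CPM in C2C12 cells, a log2 fold change of 11.75 (standard error, SE, 0.46, adjusted p = 2.15e-11 by edgeR). The Mest levels were 1220 and 1393 CPM against 4.31 and 5.70 CPM (log2 fold change 8.02, SE 0.80, adjusted p = 5.24e-07 by edgeR). Plagl1 was at 184 and 208 CPM against 1.49 and 1.72 CPM (6.92 on the log2 scale, SE 0.52). For both genes the C2C12 libraries of this day lay far below those of PMs. Peg3 and Ndn differed less, with log2 fold changes of 3.30 (SE 0.29) and 2.94 (SE 0.32), and Peg3 was at 1743 and 1653 CPM in PMs against 122 and 223 CPM in C2C12 cells. Mest at day 3 (1.63 on the log2 scale) lost its call in 3 of the 4 fits that left out 1 library, those without PM siControl replicate 2 or either C2C12 siControl replicate, with values of 1.12 to 1.67, and in 1 of 6 other fits (0.97, adjusted p = 0.187 by edgeR).

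Per kb of the gene length given in the table, the order in siControl PMs at day 0 was Mest (361 ± 33.8 CPM per kb, SD, n = 2), Peg3 (193 ± 7.21), Grb10 (72.5 ± 13.2), Plagl1 (33.1 ± 2.87), Rian (17.6 ± 0.535), Ndn (16.6 ± 0.132), Meg3 (4.59 ± 1.11), Mirg (1.80 ± 0.532) and Dlk1 (0.332 ± 0.0624). Rian and Ndn were the closest neighbours in this order. Mest ranked 118th and Peg3 267th of all 28109 genes. By day 6 the order had become Peg3 (85.5 ± 9.93), Grb10 (48.4 ± 0.348), Mest (23.5 ± 10.9), Ndn (16.1 ± 3.47), Rian (10.5 ± 5.20), Plagl1 (5.57 ± 2.19), Meg3 (2.25 ± 0.900), Mirg (0.434 ± 0.178) and Dlk1 (0.0437 ± 0.0121). There the ranges of mean ± SD overlapped between neighbours from Mest to Plagl1. In C2C12 cells at day 0 Peg3 came first (19.6 ± 8.09), followed by Ndn (2.16 ± 0.569), Mest (1.38 ± 0.273) and Plagl1 (0.271 ± 0.0276), with overlapping ranges for Ndn and Mest, and Grb10 came next (0.0227 ± 0.0157).

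Of the 67 other imprinted genes and domain neighbours with a row, 58 were tested and 47 of these were above 3 counts per library in at least one library of both cell types. Of the 47, 19 were called higher in PMs at day 0, against 16.3% of all genes, and 0 lower, against 10.5%. Both shares are over all genes tested and were not computed under the same limit on counts. A further 8 called higher and 1 called lower were at or under 3 counts in one cell type, so that their direction was fixed by the filter. The median log2 fold change of the 58 was 1.04 (0.98 with such genes at their bound) against 0.03 over all genes tested. Next to the members, Zim1 beside Peg3 was at 57.0 CPM in PMs and 5.70 CPM in C2C12 cells (log2 fold change 3.31, SE 0.41). Ddc beside Grb10 was at 18.4 CPM against 0.238 CPM (6.29, SE 0.31). Phactr2, which lies 81.7 kb from Plagl1, was at least 177-fold higher, with 5 counts over the 12 C2C12 libraries. Peg12 (2.46 on the log2 scale, SE 0.21), Mkrn3 (2.51, 0.42), Tsga14 (1.10, 0.29) and Cobl (1.09, 0.25) were called higher too, as were Rtl1, Usp29, Klf14, Cpa4 and Cpa1, whose siControl C2C12 libraries of day 0 had 3 counts or fewer. The other 9 tested neighbours were not called. They were Ube3a and Snrpn of the Prader-Willi domain, Copg2 beside Mest, Sf3b5 and Ltv1 beside Plagl1, Fignl1 beside Grb10, and Wdr25, Begain and Dio3 of the Dlk1-Dio3 domain.

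The second comparison asked whether the 9 genes respond to siTead1/4. In PMs at day 0, the 3 non-coding genes of the Dlk1-Dio3 cluster fell and the 6 other members were not called. Thus 3 of 9 members were lower, against 1.1% of the 16144 genes tested in this direction, and 0 were higher (plot of log2 fold changes by day). The 3 lie in 1 cluster and moved together over the PM libraries, so here and below they are not independent results. Meg3 was at 68.8 and 97.3 CPM with siControl and at 24.4 and 18.9 CPM with siTead1/4. This is a log2 fold change of -1.95 (SE 0.37, adjusted p = 0.0125 by edgeR). Every siTead1/4 library was below both siControl libraries.

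Rian, the host of small nucleolar RNAs, was at 141 and 147 CPM with siControl and at 29.5 and 27.9 CPM with siTead1/4 (log2 fold change -2.34, SE 0.41, adjusted p = 0.00913 by edgeR). Mirg, the host of microRNAs, was at 4.51 and 6.90 CPM against 1.20 and 1.05 CPM (log2 fold change -2.35, SE 0.41, adjusted p = 0.00841 by edgeR). The means were left at 26.1%, 19.9% and 19.7% of the control for Meg3, Rian and Mirg, and the groups of none of them overlapped. Dlk1 was at 2.10 and 1.61 CPM against 0.917 and 0.711 CPM, also without overlap. Its log2 fold change of -1.20 (SE 0.33) had an adjusted p of 0.0533 by edgeR and was not called. The call depended on the fit, as 3 of 6 other fits of all libraries of the comparison called Dlk1 lower, with log2 fold changes of -1.21 to -1.17 and adjusted p-values of 0.0132 to 0.17 over the 6.

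The number of calls depended on single libraries, and that of all genes called in either direction went from 420 to between 155 and 207 when any of the 4 was left out. The number of members called was 0 without siTead1/4 replicate 1 or replicate 2, 1 (Rian) without siControl replicate 2 and 2 (Meg3, Mirg) without siControl replicate 1, while the log2 fold changes lay between -2.17 and -1.68 for Meg3, between -2.38 and -2.29 for Rian and between -2.62 and -2.02 for Mirg. The summed level of 8 cell cycle markers, led by Top2a, was lower with siTead1/4 at day 0, at 1476 and 1518 CPM against 2089 and 2012 CPM, with 0 of 8 called. The 10 fibroblast markers, led by Col3a1, summed to 1294 and 1045 CPM against 852 and 779 CPM, with 0 of 9 tested called and Tcf21 at 0 in every library. The 7 adipocyte markers, led by Lpl, summed to 113 and 97.3 CPM against 78.3 and 66.5 CPM, with 0 of 4 tested called. Of the 6 endothelial markers 1 was called, Tek, which rose by 1.50 on the log2 scale (SE 0.28). The 6 Schwann cell markers, led by Erbb3, summed to 109 and 98.8 CPM against 139 and 132 CPM. Of these 0 of 5 tested were called, with a median log2 fold change of 0.32. The 9 myogenic markers, led by Myh3, summed to 8270 and 7288 CPM against 9003 and 8635 CPM, with 0 called and a median of 0.01. The part of these markers in the fall of Meg3, Rian and Mirg was not tested.

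**Figure D2:**
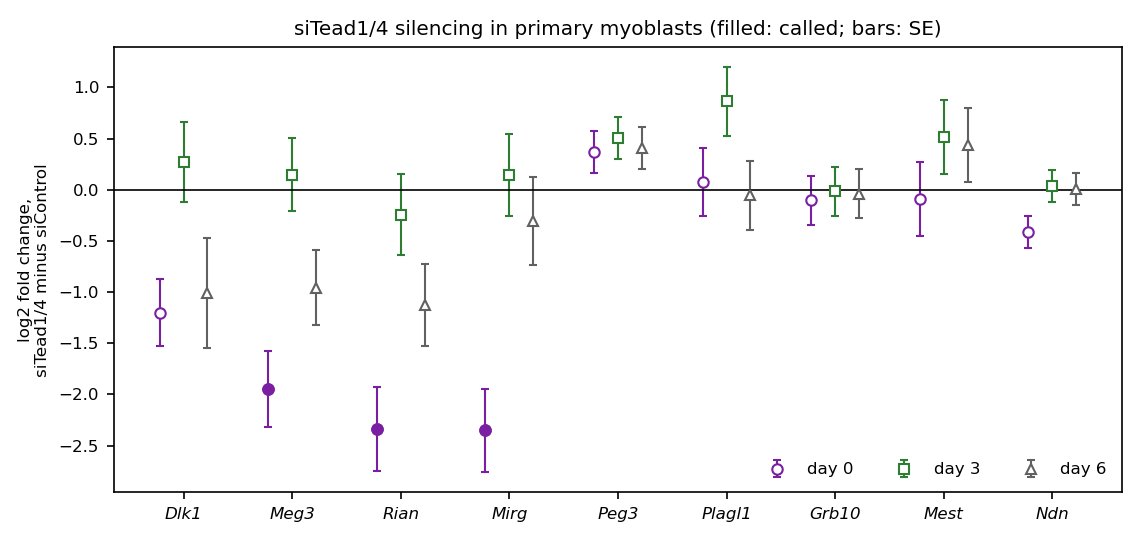
Log2 fold change of siTead1/4 against siControl in PMs for each of the 9 genes at day 0 (circles), day 3 (squares) and day 6 (triangles), with SEs as bars and filled symbols where called. Meg3, Rian and Mirg are filled at day 0, at -1.95, -2.34 and -2.35, and no symbol is filled at day 3 or day 6.

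The members outside the Dlk1-Dio3 cluster kept most of their level in siTead1/4 PMs at day 0. Peg3 was at 2535 and 1872 CPM against 1743 and 1653 CPM with siControl. Grb10 was at 768 and 478 CPM against 750 and 579 CPM, and Mest at 1212 and 1258 CPM against 1220 and 1393 CPM. Plagl1 was at 208 and 208 CPM against 184 and 208 CPM, and the groups overlapped for Grb10, Mest and Plagl1 but not for Peg3. The intervals of their log2 fold changes (95%) ran from -0.08 to 0.81 for Peg3, from -0.63 to 0.43 for Grb10, from -0.89 to 0.70 for Mest and from -0.65 to 0.80 for Plagl1, so changes over 1 in either direction lay outside each. For Ndn, at 20.7 and 20.8 CPM against 27.6 and 27.3 CPM without overlap, the interval was -0.76 to -0.07 and the edgeR adjusted p was 0.143.

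Among the other genes of the cluster, Rtl1, a retrotransposon-derived gene expressed from the paternal copy 17.5 kb from Meg3, fell as well, from 0.678 and 0.507 CPM to 0.141 and 0.138 CPM (log2 fold change -2.08, SE 0.47, adjusted p = 0.0253 by edgeR), on 50 counts in the siControl pair and 13 in the siTead1/4 pair. Wdr25 and Begain were not called. For Dio3, the deiodinase that inactivates thyroid hormone, all 4 libraries had 3 counts or fewer. In all, 4 of the 8 listed genes of the cluster were called lower, against 1.1% of all genes, and 3 of these are the members above. The median log2 fold change was -2.01 (-1.95 without Dio3) against -0.01 over all genes. None of the listed genes of the Peg3, Grb10, Mest, Prader-Willi and Plagl1 domains was called in either direction by edgeR at day 0 in PMs. Of 36 other imprinted genes tested, only Nnat was called, rising from 5.24 and 8.45 CPM to 37.8 and 27.7 CPM (log2 fold change 2.25, SE 0.28, adjusted p = 0.00194 by edgeR). Over all 16144 genes tested, 242 were called higher and 178 lower. Nnat encodes neuronatin, a small membrane protein.

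**Figure D3:**
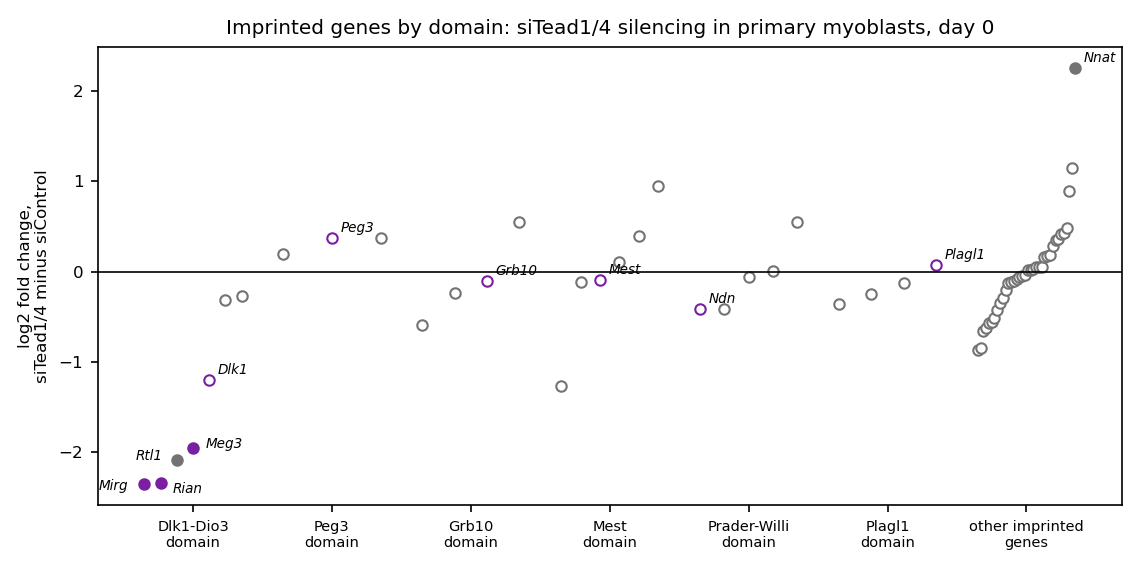
Log2 fold change of siTead1/4 against siControl in PMs at day 0 for the tested imprinted genes and neighbours, by domain, with the 9 members in purple, other genes in grey, and filled symbols where called. The 4 filled genes of the Dlk1-Dio3 domain lie at or below -1.95 and Nnat at 2.25.

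At day 3 in PMs, 0 members were called by edgeR or DESeq2 and 2 (Peg3, Plagl1) had an unadjusted p under 0.05, while 3.3% of all genes were called in either direction. Meg3 was at 35.3 and 33.0 CPM with siControl and at 48.9 and 27.1 CPM with siTead1/4. Rian was at 56.9 and 64.7 CPM against 68.7 and 34.4 CPM, and Mirg at 1.29 and 2.05 CPM against 2.36 and 1.35 CPM. The siTead1/4 replicates stood on both sides of the controls for Meg3 and Rian, with replicate 1 high and replicate 2 low. Beside Peg3, Usp29 rose from 0.673 and 0.506 CPM to 2.02 and 1.92 CPM (log2 fold change 1.73, SE 0.30). At day 6, 0 members were called by either tool and 2 (Meg3, Rian) had an unadjusted p under 0.05, with 0.743% of all genes called. Meg3 was then at 52.2 and 29.2 CPM against 27.3 and 14.6 CPM, a log2 fold change of -0.96 (SE 0.37, adjusted p = 0.321 by edgeR). In the same libraries Rian was at 116 and 55.7 CPM against 52.5 and 25.9 CPM (-1.13, SE 0.40, adjusted p = 0.273 by edgeR), and siControl replicate 1 was the highest library for both genes. Mirg changed less, from 1.78 and 0.978 CPM to 1.36 and 0.868 CPM, with overlapping groups (log2 fold change -0.30, adjusted p = 0.873 by edgeR).

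Whether the response differed between days was tested as an interaction, which was added after the data had been seen. Between day 3 and day 0 it was 2.10 for Meg3 (SE 0.51, adjusted p = 0.0976 by edgeR), 2.09 for Rian (adjusted p = 0.13 by edgeR) and 2.50 for Mirg (SE 0.57, adjusted p = 0.0832 by edgeR). No member was called, against 0.328% of all genes, although 4 (Dlk1, Meg3, Rian, Mirg) had an unadjusted p under 0.05 and DESeq2 called 2 (Meg3, Mirg). Between day 6 and day 0, 0 were called by edgeR against 0.626% of genes, 1 (Mirg) had an unadjusted p under 0.05, and DESeq2 called 1 (Mirg). Between day 3 and day 0, 4 of 7 other fits called Meg3 (adjusted p-values of 5.86e-05 to 0.185), 3 of 7 Rian (0.000123 to 0.252) and 3 of 7 Mirg (0.00152 to 0.298), where the 7 include DESeq2. None was called by edgeR in the 8 fits that left out 1 library, where the differences lay between 1.50 and 2.86 with adjusted p-values of 0.104 to 0.338. Whether the fall at day 0 differed from the values at day 3 thus depended on the fit.

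Meg3, Rian and Mirg moved together over the PM libraries (plot of neighbours against Meg3). Meg3 ranged from 14.6 to 97.3 CPM over the 12 libraries, and the ratio of Rian to Meg3 reads stayed between 1.21 and 2.22 (median 1.69). The ratio of Mirg to Meg3 lay between 0.0335 and 0.0709 (median 0.0496). Dlk1, the only protein-coding gene among the 4 members of the cluster, did not keep such a ratio, which ran from 0.00425 to 0.0376 (median 0.0113). Its ratio was lowest in libraries of day 6 and highest in those of siTead1/4 at day 0.

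**Figure D4:**
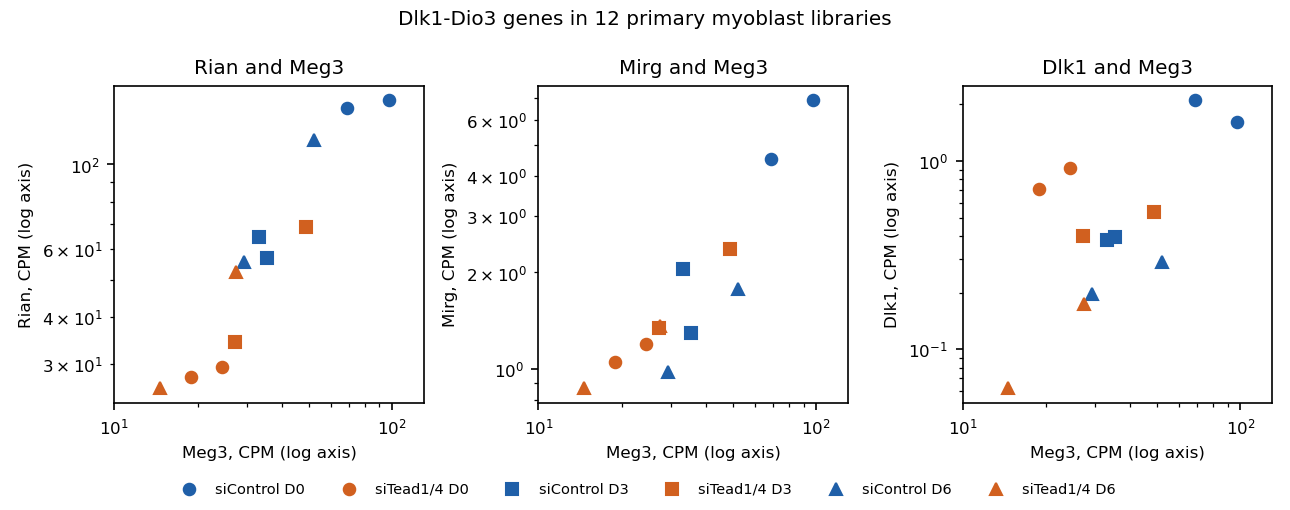
Rian, Mirg and Dlk1 against Meg3 in the 12 PM libraries (CPM, both axes log), with siControl in blue, siTead1/4 in orange, and circles, squares and triangles for days 0, 3 and 6. Rian and Mirg follow Meg3 over its range of 14.6 to 97.3 CPM, while Dlk1 separates by day.

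In C2C12 cells 5 of the 9 members (Peg3, Plagl1, Grb10, Mest and Ndn) passed the filter on low counts. At day 0 none of these 5 was called by edgeR or DESeq2 or had an unadjusted p under 0.05, with 0.438% of the 15303 tested genes called in either direction. At day 3, 1 of 5 was lower, Grb10, against 1.08% of genes in this direction. Grb10 was at 1.98 and 2.89 CPM with siControl and at 0.556 and 0.394 CPM with siTead1/4, on 84, 143, 21 and 17 counts (log2 fold change -2.39, SE 0.47, adjusted p = 0.0414 by edgeR). The groups did not overlap, but the call was lost without any one of the 4 libraries, with log2 fold changes of -2.64 to -2.08 and adjusted p-values of 0.0561 to 0.274. The number of all genes called at day 3 likewise went from 195 to between 2 (without siControl replicate 2) and 429 (without siTead1/4 replicate 1). At day 6 none of the 5 was called by either tool or had an unadjusted p under 0.05, against 0.0457% of genes called.

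Mest in C2C12 cells varied widely between siTead1/4 replicates, at 118 and 22.0 CPM at day 3 and at 148 and 43.7 CPM at day 6, against 68.9 and 72.6 CPM and then 47.5 and 44.1 CPM with siControl. At day 3 the siTead1/4 replicates lay on either side of both controls. Plagl1 was at 0.543 and 1.54 CPM with siControl and at 0.159 and 0.394 CPM with siTead1/4 at day 3, without overlap and not called (adjusted p = 0.177 by edgeR). In the same comparison Myh3, 1 of 9 myogenic markers, fell by 2.47 on the log2 scale (SE 0.45), and the myogenic markers summed to 4470 and 6165 CPM against 12156 and 14898 CPM. Their part in the lower Grb10 level was not tested. Among other imprinted genes Zdbf2 (log2 fold change -3.09, SE 0.56) and Gatm, a creatine synthesis enzyme (-1.50, SE 0.23), were lower at day 3.

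The response of Grb10 to siTead1/4 at day 3 differed between the cell types. In PMs Grb10 was at 884 and 857 CPM with siControl and at 1017 and 714 CPM with siTead1/4, and the difference of the log2 fold changes (PM minus C2C12) was 2.36 (SE 0.46, adjusted p = 0.0164 by edgeR). It was the 1 member called among the 5 above the floor in both cell types, against 1.02% of 16926 genes in this direction. This share was not limited to genes above the floor. The call was lost in 5 of 8 fits that left out 1 library, where the difference lay between 2.06 and 2.61. Without PM siControl replicate 1 or 2, PM siTead1/4 replicate 1, C2C12 siControl replicate 2 or C2C12 siTead1/4 replicate 2, no member was called. Plagl1, at 73.5 and 103 CPM with siTead1/4 and 32.3 and 64.2 CPM with siControl in PMs, had a difference of 2.77 (SE 0.73, adjusted p = 0.0814 by edgeR) that missed the threshold. It was called in 3 of 5 other fits, DESeq2 included (adjusted p-values of 1.43e-05 to 0.201 over the 5), and in 1 of 8 that left out 1 library. At day 0 and day 6 none of the 9 was called by edgeR or DESeq2 or had an unadjusted p under 0.05 among those above the floor, against 0.00591% and 0.0354% of genes.

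The third comparison followed siControl cells through differentiation (plot of changes from day 0). In PMs 6 of 9 members were lower at day 3, Dlk1, Meg3, Rian, Mirg, Plagl1 and Mest, against 14.9% of 16144 genes in this direction, and 0 were higher. At day 6 there were again 6 of 9 lower, Dlk1, Meg3, Mirg, Peg3, Plagl1 and Mest, against 15.3%. Between day 6 and day 3, 0 members were called by edgeR against 2.8% of genes, 4 (Peg3, Grb10, Mest, Ndn) had an unadjusted p under 0.05, and DESeq2 called 1 (Mest). The comparisons with day 0 share their control libraries. All 8 cell cycle markers fell at both days in both cell types, and in PMs their sum went from 2089 and 2012 CPM at day 0 to 209 and 249 CPM at day 3. The fibroblast markers summed to 2564 and 3004 CPM at day 3 and 6442 and 4729 CPM at day 6 in siControl PMs. At day 3, 4 of 9 myogenic markers were higher and 3 lower in PMs. The part of these lists in the changes of the members was not tested.

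Mest fell at both days. Its day 0 levels of 1220 and 1393 CPM were followed by 155 and 284 CPM at day 3, then 57.2 and 113 CPM at day 6 in siControl PMs. The log2 fold changes from day 0 were -2.63 (SE 0.38, adjusted p = 0.000167 by edgeR) and -4.01 (SE 0.41, adjusted p = 1.16e-05 by edgeR). Its overlapping neighbour Copg2 was at 63.6 CPM at day 0 and at 81.8 and 79.3 CPM at days 3 and 6, and did not pass the fold threshold. Plagl1 went from 184 and 208 CPM to 32.3 and 64.2 CPM and then 23.9 and 42.3 CPM, with log2 fold changes of -2.08 (SE 0.34) and -2.63 (SE 0.35). No day 0 library overlapped a later one for either gene.

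Dlk1 decreased from 2.10 and 1.61 CPM to 0.393 and 0.379 CPM at day 3 and 0.291 and 0.196 CPM at day 6, on 99, 57, 14, 15, 9 and 6 counts (log2 fold changes -2.31, SE 0.36, and -2.98, SE 0.40). Of the 3 non-coding genes of the cluster, Meg3 changed by -1.34 (SE 0.36) at day 3 and -1.10 (SE 0.36) at day 6, Mirg by -1.82 (0.40) and -2.11 (0.41), and Rian by -1.30 (0.40) at day 3. At day 6 Rian, at 116 and 55.7 CPM, was not called (adjusted p = 0.0961 by edgeR). Without siControl day 6 replicate 1, the high library, its log2 fold change was -1.43 with an adjusted p of 0.0175. Meg3 and Rian at day 3 lost their calls in 2 and 3 of the 4 fits that left out 1 library, with adjusted p-values up to 0.0647 and 0.0873. Meg3 at day 6 lost its call in 2 of 4, with adjusted p-values up to 0.152.

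Peg3 went from 1743 and 1653 CPM at day 0 to 1014 and 1255 CPM at day 3 and 690 and 813 CPM at day 6, where it was called (log2 fold change -1.24, SE 0.20, adjusted p = 0.000372 by edgeR). Grb10 was at 750 and 579 CPM, then 884 and 857 CPM, then 446 and 441 CPM, and was called at neither day. The Ndn level was 27.6 and 27.3 CPM, then 21.3 and 18.1 CPM, then 30.6 and 22.5 CPM. Grb10 was thus highest and Ndn lowest at day 3.

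**Figure D5:**
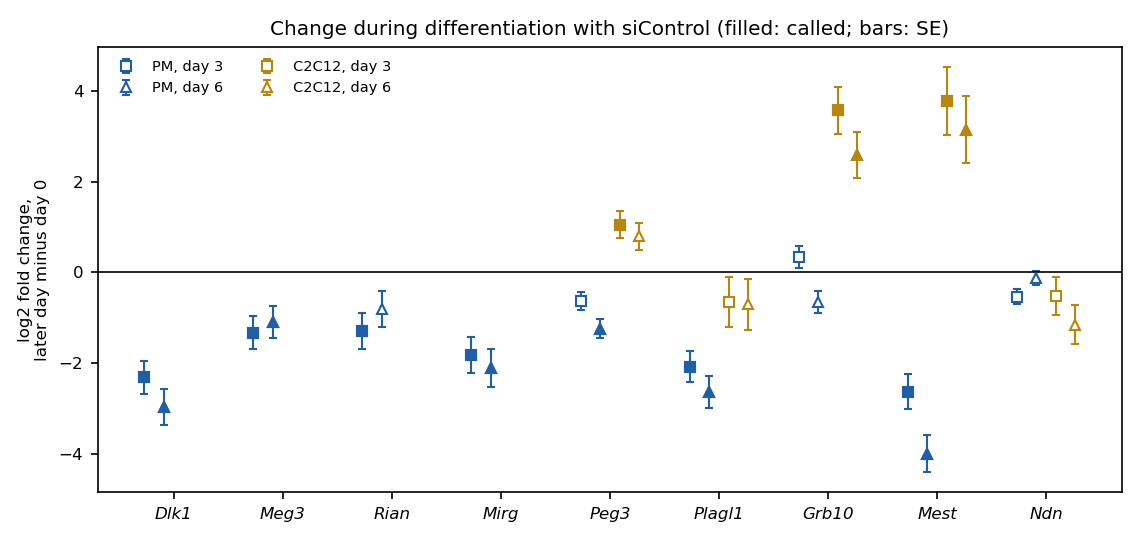
Log2 fold change of siControl cells at day 3 (squares) and day 6 (triangles) against day 0 in PMs (blue) and C2C12 cells (gold), with SEs as bars and filled symbols where called, for members tested. Mest lies at -2.63 and -4.01 in PMs and at 3.78 and 3.15 in C2C12 cells.

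In C2C12 cells 3 of the 5 tested members were higher at day 3, Peg3, Grb10 and Mest, against 16% of 15303 genes in this direction. At day 6 there were 2, Grb10 and Mest, against 17.1%, and between day 6 and day 3 none was called by edgeR or DESeq2 and 1 (Grb10) had an unadjusted p under 0.05, with 0% of genes called. Mest rose from 4.31 and 5.70 CPM at day 0 to 68.9 and 72.6 CPM at day 3 and 47.5 and 44.1 CPM at day 6 (log2 fold change 3.78, SE 0.75, adjusted p = 0.00302 by edgeR at day 3, and 3.15, SE 0.73, at day 6, where the call was lost without C2C12 siControl day 0 replicate 1, adjusted p = 0.0514 by edgeR). Grb10 went from 0.310 and 0.107 CPM to 1.98 and 2.89 CPM and then 1.04 and 1.44 CPM (3.58, SE 0.51, and 2.59, SE 0.51). Both genes thus remained lower at day 3 than in siControl PMs of the same day. Peg3 rose from 122 and 223 CPM to 278 and 455 CPM at day 3 (log2 fold change 1.05, SE 0.30, adjusted p = 0.0179 by edgeR). The Peg3 call was lost without day 0 replicate 1 or day 3 replicate 2, with log2 fold changes of 0.69 and 0.65.

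Ndn and Plagl1 were not called in C2C12 cells at either day. Ndn was at 2.90 and 4.23 CPM at day 0, 2.36 and 2.71 CPM at day 3, and 1.81 and 1.47 CPM at day 6, without overlap between days. Its log2 fold change at day 6 was -1.15 (SE 0.43, adjusted p = 0.0517 by edgeR) and missed the threshold. Among 7 other fits 5 called it lower, DESeq2 included (adjusted p-values of 0.00855 to 0.0621 over the 7), whereas none of the 4 fits that left out 1 library did (adjusted p of 0.069 to 0.258). Plagl1 was at 1.49 and 1.72 CPM, then 0.543 and 1.54 CPM, then 0.597 and 1.47 CPM, with log2 fold changes of -0.66 (SE 0.55) and -0.71 (SE 0.56) that were not called. At day 3, 6 of 9 myogenic markers (median log2 fold change 1.89) and 6 of 8 tested fibroblast markers (median 3.36) were higher, of which Lum and Dpt were at or under 3 counts at day 0. The fibroblast markers summed to 3641 and 4474 CPM at day 3 against 1689 and 2482 CPM at day 0. The part of these lists in the changes of the members was not tested.

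The change from day 0 differed between the cell types for Peg3, Grb10 and Mest. The difference (PM minus C2C12) at day 3 was -1.67 for Peg3 (SE 0.38, adjusted p = 0.00703 by edgeR), -3.28 for Grb10 (SE 0.51, adjusted p = 0.000294 by edgeR) and -6.39 for Mest (SE 0.91, adjusted p = 0.000126 by edgeR). Dlk1, Meg3, Rian and Mirg were at or near 0 in C2C12 cells, so the difference has no estimate for them. Of the 5 other members 3 were called lower, against 7.44% of 16926 genes, a share not limited to genes above the floor. At day 6 the same 3 genes were called, at -2.01, -3.24 and -7.13, against 7.43%. Plagl1 was not called at day 3 (-1.41, SE 0.63, adjusted p = 0.161 by edgeR) or at day 6 (-1.84, SE 0.65, adjusted p = 0.0678 by edgeR). At day 6 it was called in 3 of 5 other fits, DESeq2 included (adjusted p-values of 0.000421 to 0.0652 over the 5), and in 2 of 8 that left out 1 library, and at day 3 in 1 of 5 and 0 of 8. The Peg3 call at day 3 was lost without C2C12 siControl day 3 replicate 2 (-1.27, adjusted p = 0.0519 by edgeR). In the same contrasts 7 of 9 myogenic markers were lower at day 3 (median -2.08) and 6 of 9 at day 6 (median -2.34), and their part in these differences was not tested. Mest fell in PMs while it rose in C2C12 cells, and its levels drew together, with siControl means of 219 CPM in PMs and 70.7 CPM in C2C12 cells at day 3.

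Neighbours of the members changed in both directions during differentiation of siControl PMs. At day 3 in the Dlk1-Dio3 domain, Rtl1 fell by 3.17 on the log2 scale (SE 0.55), Begain rose by 1.80 (SE 0.57) and Dio3 was at least 6.24-fold higher than the floor at day 0. Usp29 beside Peg3 fell by 1.51 (SE 0.30), whereas Zim1 (57.0 CPM before and 64.1 CPM after) was not called. Beside Grb10, Cobl rose by 1.66 (SE 0.20) and Fignl1, a DNA repair gene, fell by 3.54 (SE 0.24), while Ddc was not called. Tsga14 and Cpa4 near Mest fell by 1.38 (SE 0.24) and 2.58 (SE 0.43). In the Prader-Willi domain Peg12 fell by 2.47 (SE 0.16) and Snrpn, a splicing protein gene, rose by 1.27 (SE 0.21). Sf3b5 near Plagl1 fell by 1.10 (SE 0.13). Magel2 and Tsga13, with 7 and 5 counts over the 12 PM libraries, were not tested. In C2C12 cells at day 3, Zim1 rose by 2.61 (SE 0.44), Ddc by 5.37 (SE 0.42) and Cobl by 3.34 (SE 0.28), Cpa1 was at least 3.84-fold higher, and Fignl1 and Peg12 fell by 3.43 (SE 0.61) and 1.98 (SE 0.30).

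Outside the members' domains, 36 imprinted genes were tested in PMs, of which 8 rose and 3 fell at day 3, against 17.5% and 14.9% of all genes, with a median log2 fold change of 0.44 against 0.01 over all genes. The 3 largest changes were those of Nnat, which fell by 3.53 (SE 0.34), Kcnq1, which rose by 3.40 (SE 0.54), and Cdkn1c, an inhibitor of cyclin-dependent kinases, which rose by 3.36 (SE 0.34) from 41.7 to 446 CPM. In C2C12 cells 13 of 34 rose, against 16%, and 2 fell, against 12.7%. Kcnq1, 1 of the 13, was at or under 3 counts at day 0. The largest rises there were in Dcn (7.17, SE 0.90), which is also a fibroblast marker, Igf2 (5.98, SE 0.61) and H19 (5.00, SE 0.51). Igf2 encodes a growth factor and H19 is a non-coding RNA of the same domain. At day 6 in PMs with siTead1/4, Dcn was lower (log2 fold change -2.46, SE 0.39).

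Likeness was described as Pearson's r between the log2 group means of 12 groups, which share libraries, depth and the large difference between the cell types. Of all tested genes Rian was most like Meg3 (r = 0.999), followed by Aard (0.994) and Tmem136 (0.992), and Meg3 was most like Rian, followed by Rnaset2b (0.994) and Aard (0.993). The closest to Mirg were 9330182L06Rik (0.988), Srsf12 (0.986) and Ptprt (0.979), and the closest to Dlk1 were Slc29a4 (0.987), Cacng4 (0.975) and Cass4 (0.974). For Peg3 these were Klhl9 (0.990), Anapc13 (0.987) and D630003M21Rik (0.982). Plagl1 had Asb4, itself on the list of imprinted genes (0.994), with Hmgn2-ps1 (0.992) and Cox6b2 (0.991). For Grb10 they were Lbx1 (0.996), Fam49a (0.995) and Wbscr17 (0.993), for Mest Spna1 (0.979), Ncoa1 (0.978) and Pitx3 (0.975), and for Ndn Snapc1 (0.990), Gstk1 (0.989) and Shank3 (0.988). Over the 12 groups Meg3 and Rian were thus each other's nearest gene. Over the 6 PM groups alone they were not, as the nearest to Meg3 was Iqcb1 (0.984) and the nearest to Rian was Phf2 (0.978), and the r between Meg3 and Rian was 0.950, in place 7 for Meg3 and place 4 for Rian.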

How the data were processed

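The authors sequenced poly(A) RNA without strand information. The submitters' processing notes name CASAVA 1.8.2, TopHat2 2.0.10, Bowtie2 2.1.0, HTSeq 0.6.1 and DESeq2 1.8.1, with mm9 as the build. The deposited table holds raw counts per gene and, as a second kind of column, the counts divided by size factors by the authors (unit signal). Counts were the values tested, and the size-factor signal served only as an alternative scaling. How reads in overlapping genes were assigned is not given in the sources used here. Values per kb of the 24 libraries and the 36 columns of 12 libraries not listed among the samples were not used, nor was any column of the authors' own comparisons.

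edgeR 4.0.16 (R 4.3.3) was run with filterByExpr, TMM and the quasi-likelihood test. Comparisons within a cell type used its 12 libraries in 6 groups (15303 genes tested in C2C12 cells, 16144 in PMs), and comparisons between cell types used all 24 (16926 genes). P-values were adjusted by Benjamini-Hochberg over all genes tested. Library totals ran from 25453830 to 52784510 counts. Folds against a group at or under 3 counts per library divide the mean of the other group by that floor. They are lower bounds on the ratio of the observed means and do not cover the counting error of either group. Scripts were tested on simulated data. Alternatives were DESeq2 1.42.0, its size factors in edgeR, no count filter, at least 10 counts in every library, a replicate block, fits of other sets of libraries, and leaving out each library.

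Genes named were the 9 members, listed genes of their domains, the 3 largest called changes among other imprinted genes in the silencing and day 3 comparisons, defining markers, and the 3 genes most like each member. The members and lists were chosen with earlier results of these data known. RefSeq promoters (GRCm38.p6) were searched on both strands and placed on mm9 by exact match.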

Additional observations from a re-analysis of the deposited data

Results flagged for a closer look

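In 7 cases the effect of a contrast differed between the cell types by a test of the difference itself (edgeR, adjusted p under 0.05, PM minus C2C12 on the log2 scale). Grb10 responded differently to siTead1/4 at day 3, by 2.36 (adjusted p = 0.0164), where it was called lower in C2C12 cells, on 17 to 143 counts a library, and not called in PMs. This difference lost its call in 5 of 8 fits that left out 1 library (adjusted p-values up to 0.107), and the Grb10 call in C2C12 cells was lost in 4 of 4. From day 0 to day 3 of siControl differentiation the difference was -1.6689 for Peg3, -3.2775 for Grb10 and -6.3891 for Mest, and that of Peg3 was not called without C2C12 siControl day 3 replicate 2. From day 0 to day 6 it was -2.0057 for Peg3, -3.2432 for Grb10 and -7.1287 for Mest. Groups of 2 libraries are too small to look for single outlying libraries.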

How the results depend on the processing

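With 2 libraries a group, calls often turned on 1 library, and their cause was not tested. Of 262 counts of called members, 226 stayed within 1.5 times and 36 moved. Of 923 values for single genes, 837 kept direction and side of the threshold, 34 lost a call, 41 gained one, 10 reversed and 1, a Plagl1 level under the authors' size factors, moved by more than its SD. Of 842 further values for 69 results never called, 60 changed sign, 59 of them by leaving out 1 library. With all libraries kept, other fits lost the Grb10 call in C2C12 cells at day 3 in 1 of 6, and called Plagl1 there in 1 of 6, Rian with siTead1/4 in PMs at day 6 in 1 of 7, and Mest for PM day 6 against day 3 in 3 of 7. Without a count filter, members called were 2 for siTead1/4 in C2C12 cells at day 3, 1 in C2C12 cells and 1 in PMs at day 6, 2 for PM day 6 against day 3, 2 for the cell type difference at day 3, and 3 and 2 for the day 3 and day 6 differences from day 0 in PMs. With at least 10 counts in every library they were 0 for C2C12 day 3, 0 for the cell type difference, and 3, 3 and 2 for PM against C2C12 at days 0, 3 and 6, since only 3 members were then tested. DESeq2 gave 1 for PM day 6 against day 3, 2 for the cell type difference, and 2 and 1 for the day differences. Fits of only the libraries compared gave 0 for C2C12 day 3 and 2 for the day 3 difference in PMs. The replicate numbers were not taken to pair the samples, which required every correlation to exceed 0.1. In C2C12 cells 6 of 15 did (-0.203 to 0.525), and in PMs 14 of 15 did (0.0695 to 0.539, median 0.219), so PM libraries of one number tended to deviate together. A replicate block gave 1 for PM day 6 against day 3, 2 for the cell type difference and 3 for the day 3 difference in PMs. Leaving out 1 library gave 0 to 0 for C2C12 day 3, 1 to 3 for C2C12 day 6 against day 0, 0 to 2 for PM day 0, 0 to 1 for PM day 6 against day 3 and 0 to 2 for the cell type difference at day 3. It also reversed values that were not called, from -0.0613 to 1.6875 for Mest in C2C12 cells at day 6, and in PMs at day 3 from -0.346 to 0.5053 for Meg3, -0.8359 to 0.1661 for Rian and -0.3267 to 0.516 for Mirg, and at day 6 from -0.6683 to 0.184 for Mirg, and at day 0 from -0.0057 to 0.1618 for Plagl1, from -0.4861 to 0.202 for Grb10 and from -0.1788 to 0.0031 for Mest. A group left with 1 library was assumed to vary like the others.

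The number of all genes called by siTead1/4 also moved by over 1.5 times. In C2C12 cells it was 67, 195 and 7 at days 0, 3 and 6, against 256, 594 and 143 by DESeq2, 480, 1055 and 387 with no filter, 0, 7 and 0 with only the libraries compared and 245, 690 and 88 in a fit of all 24 libraries, with 48 at day 3 and 0 at day 6 under the filter of 10 counts and 12 at day 6 with the block. In PMs it was 420, 532 and 120, against 204, 312 and 60 in the fit of all 24 libraries, with 804 at day 3 under no filter and, at day 6, 223 by DESeq2, 335 with no filter, 290 with the block and 0 with only the libraries compared. For PM day 6 against day 3 it was 452, against 709 with no filter, 732 with the block, 148 and 164 in the fits of the libraries compared and of all 24. C2C12 day 6 against day 3 had 0, against 17 by DESeq2 and 102 with no filter. PM against C2C12 had 4534, 5044 and 4210 at days 0, 3 and 6, against 2096, 2353 and 1662 with 10 counts in every library, which also gave 1238 and 1349 in place of 1901 and 2150 for the differences of the siControl change. The cell type difference of siTead1/4 had 1, 212 and 6, against 32, 494 and 59 by DESeq2, 88, 853 and 146 with no filter, 5, 327 and 34 with the block and 2, 122 and 1 with only the libraries compared, and 115 and 0 at days 3 and 6 with 10 counts. The day differences in PMs had 53 and 101, against 271 and 292 by DESeq2, 373 and 413 with no filter, 287 and 325 with the block and 7 and 1 in the fit of all 24, with 86 under 10 counts and 133 with only the libraries compared at day 3. Leaving out 1 library gave 0 to 113, 2 to 429 and 0 to 2 genes for siTead1/4 in C2C12 cells at days 0, 3 and 6, 155 to 207, 240 to 452 and 35 to 78 in PMs, 143 to 328 for PM day 6 against day 3, 0 to 77, 47 to 642 and 1 to 21 for the cell type difference, and 2 to 36 and 9 to 64 for the day differences. Depth limits Dlk1, with 2 to 99 counts in a PM library, and Meg3, Rian, Mirg and Dlk1 in C2C12 cells.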
